A study of Mus musculus with 12 samples.

Results

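Interferon-stimulated genes are genes whose RNA rises when a cell receives an interferon signal, and 40 of them were followed here through mouse regulatory T cells (Tregs). They were chosen by symbol from a list of known interferon-stimulated genes of 11 kinds, with earlier results of these data known. All 40 were found among 23352 gene symbols and passed the filter that left 11431 genes tested. The values came from poly(A)-selected RNA of sorted spleen and lymph node Tregs of C57BL/6 females. All mice carried a YFP-Cre linked to Foxp3 on one X chromosome and wild-type Foxp3 on the other (Foxp3YFP-Cre/Foxp3WT). The HET mice were Ezh2fl/+, with a floxed and a wild-type allele of the histone methyltransferase gene Ezh2, and the KO mice were Ezh2fl/fl. No group lacked Cre, so the HET Tregs are the control. In such females X inactivation leaves Cre active in some Tregs and not in others, and the labels do not say whether the sort took YFP-positive cells. From each genotype the authors sorted Tregs high (CD62Lhi) and low (CD62Llo) for CD62L, a surface marker that resting T cells carry and activated cells lose. Each of the 4 groups had 3 libraries, but the label of HET CD62Lhi replicate 3 reports low read counts, so that group was used with 2 libraries. Ages are not given in the labels.

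Type I interferons bind a receptor of Ifnar1 and Ifnar2, which activates the kinases Jak1 and Tyk2 and then transcription factors that include Stat2 and Irf9. Their complex binds paired GAAA repeats in the promoters of its target genes. Interferon gamma uses Ifngr1, Ifngr2, Jak1 and Jak2, and its signal ends at a palindrome of TTC and GAA. Many of the target genes encode proteins that sense or block viruses, and T cells at rest keep a low level of them.

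The paired repeat is shown first, since it is the site that the type I complex binds. It was searched as GAAANNGAAA, or TTTCNNTTTC on the other strand, in the RefSeq promoters of GRCm38.p6, each of which holds 250 bases before and 50 bases after a start site. Of the 40 genes, 31 had a promoter there, and 18 of those 31 (58.1%) held a match, against 3.44% of all 32851 promoters and 3.99% of the 27025 gene symbols they belong to. The 7 stretches are printed 5′ to 3′ on the strand of the gene, with the matches in capitals. Ifit3, Oas3, Bst2 and Slfn5 were lower in CD62Llo Tregs of both genotypes, Gbp3 was higher, and Isg15 and Ifit1 were called in neither.
Ifit3, chr19:34583353-34583436, plus strand: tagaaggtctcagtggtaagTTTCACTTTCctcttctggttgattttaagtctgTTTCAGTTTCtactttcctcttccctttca
Oas3, chr5:120777705-120777754, minus strand: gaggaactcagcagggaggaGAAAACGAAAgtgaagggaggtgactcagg
Bst2, chr8:71537567-71537622, minus strand: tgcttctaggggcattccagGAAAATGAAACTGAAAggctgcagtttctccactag
Slfn5, chr11:82951927-82951976, plus strand: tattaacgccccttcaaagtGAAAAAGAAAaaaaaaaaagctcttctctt
Gbp3, chr3:142559979-142560034, plus strand: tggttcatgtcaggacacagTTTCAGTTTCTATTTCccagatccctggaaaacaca
Isg15, chr4:156200855-156200916, minus strand: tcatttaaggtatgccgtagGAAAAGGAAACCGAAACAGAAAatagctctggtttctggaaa
Ifit1, chr19:34640765-34640833, plus strand: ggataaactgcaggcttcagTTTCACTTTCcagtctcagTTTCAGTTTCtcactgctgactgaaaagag
The capitals of Gbp3, Bst2 and Isg15 hold matches that overlap, 2 in Gbp3, 2 in Bst2 and 3 in Isg15. A match describes letters and does not show binding.

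**Figure D1:**
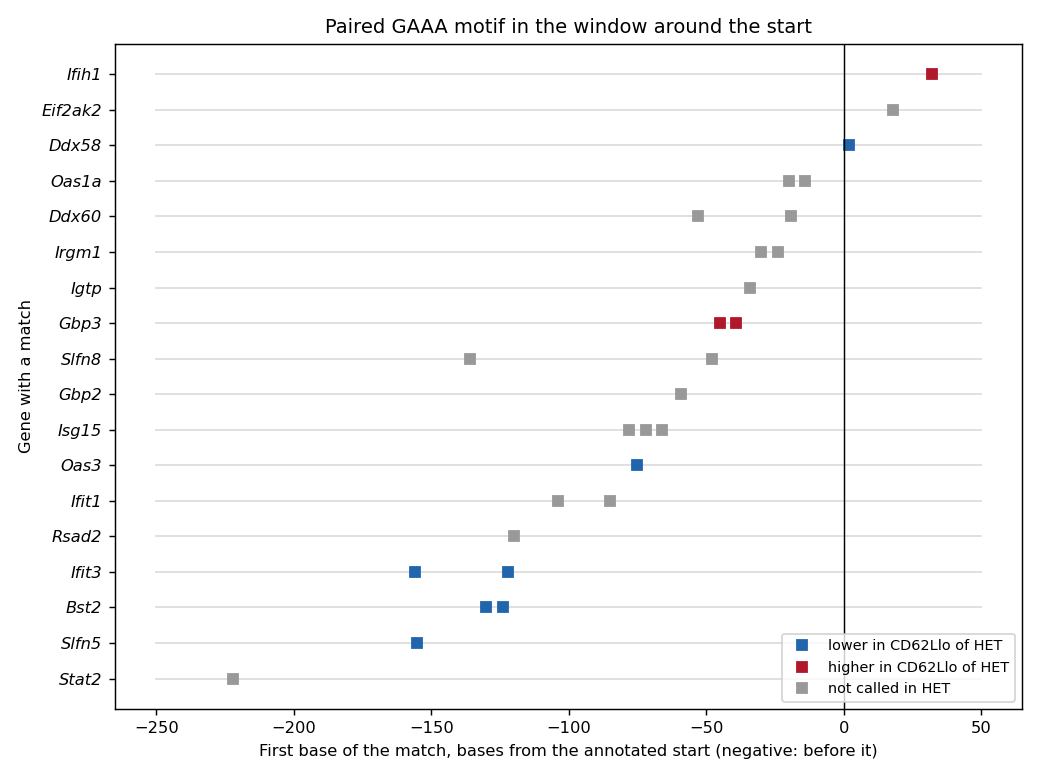
Position of each match to the paired GAAA motif (x axis, bases from the annotated start) in the 18 genes that have one (y axis), with 1 square for each match and blue, red and grey for genes lower, higher and not called in CD62Llo Tregs of HET mice. Most matches lie before the start, and those of Ddx58, Eif2ak2 and Ifih1 lie after it; Slfn8 has 2 annotated starts, and its squares are 1 match seen from each.

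The share of genes with the motif was taken for the genes that fell and the others, with no test. Of 13 genes that were lower in a fraction comparison and had a promoter, 5 (38.5%) held a match, compared with 13 of the other 18 (72.2%). The interferon gamma palindrome TTCNNNGAA, which reads the same on both strands, was in 7 of the 31 genes (22.6%), against 9.55% of all gene symbols and 8.30% of all promoters. Oas2, Usp18, Dhx58, Zbp1, Mx1, Mx2, Rtp4, Parp14 and Ifi27l2a had no entry.

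Levels are given in FPKM, fragments scaled to transcript length and library size, which can be compared between genes because it is per length. The files used here hold no read counts, so the depth behind a value is unknown. In the 11 libraries, 12.1% to 30.8% of the entries of at least 1 FPKM, and 8 to 17 of the 40 genes, exceeded the upper limit deposited beside them. No source used here says why, and those limits were not used as errors. Nothing in the labels says that the libraries came from separate animals, so p-values may measure technical spread. Ezh2 measured 12.7 and 12.5 FPKM in HET CD62Lhi and 18.2, 17.8 and 20.5 in HET CD62Llo, against 9.15, 11.5 and 11.02 in KO CD62Lhi libraries and 12.5, 16.8 and 14.4 in KO CD62Llo. Every KO library was below every HET library of its fraction, but the RNA was not lost. The log2 changes were -0.24 (SE 0.12) in CD62Lhi and -0.36 (SE 0.11) in CD62Llo, and neither was called. The labels do not say which exons are floxed, and a gene-level value also counts exons outside them, so it checks the genotype only weakly. Foxp3 lay between 75.9 and 96.8 FPKM throughout, but the summed FPKM of 7 Treg and CD4 T cell markers moved with the fractions, being 1208 to 1299 in HET CD62Lhi, 1657 to 1876 in HET CD62Llo, 1210.0 to 1254 in KO CD62Lhi and 1457 to 1632 in KO CD62Llo. Of these, Ikzf2, Ctla4, Cd4, Cd3e and Cd3g were higher in CD62Llo of both genotypes, although the calls of Cd3e in HET and of Cd4, Cd3e and Cd3g in KO were lost under some alternatives. The summed FPKM of 7 B cell markers was 83.0 to 101 in HET CD62Lhi, 22.9 to 33.7 in HET CD62Llo, 79.5 to 136 in KO CD62Lhi and 27.0 to 65.8 in KO CD62Llo.

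The 40 genes were above the middle of all genes in level. Their median FPKM, taken over the means of the 11 libraries, was 26.2, compared with 12.1 for all genes tested, and 28 of 40 lay above the latter. By mean level, 6 genes reached at least 100 FPKM, 23 lay from 10 to 100, and 11 were under 10. Ifi27l2a was highest, at 761 to 1006 FPKM, followed by the Schlafen gene Slfn2 at 265 to 332. Rsad2, which encodes viperin, and Ifi44 were the lowest, at 1.45 to 4.51 and 0.168 to 6.05 FPKM.

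**Figure D2:**
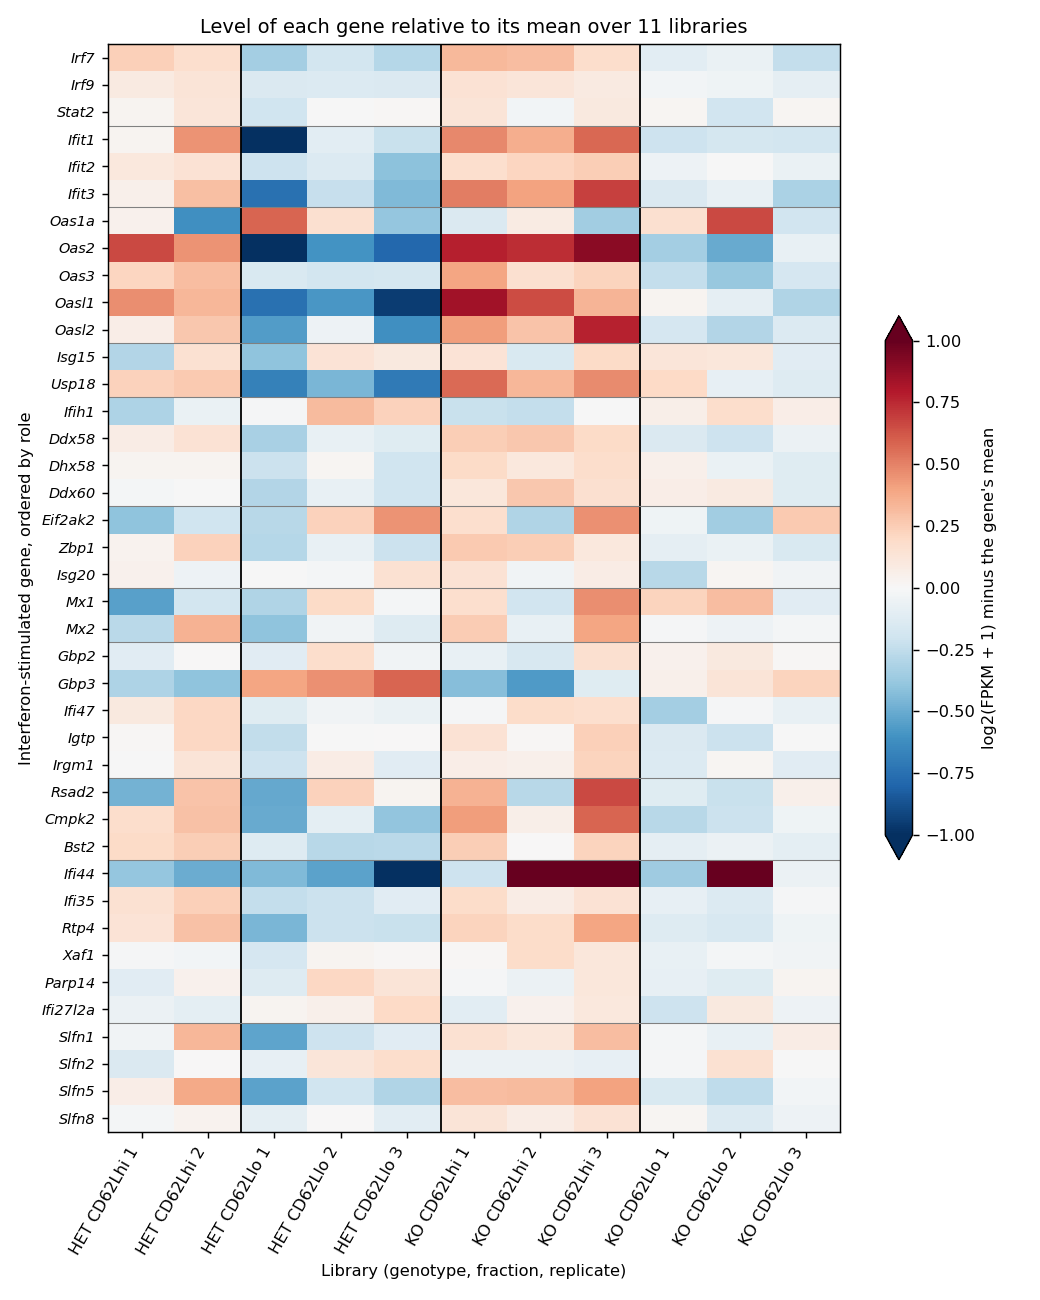
Level of the 40 genes (y axis, grouped by role) in each of 11 libraries (x axis), as log2(FPKM + 1) minus the gene's mean over the libraries, red above and blue below it. Oas2, Oasl1 and Usp18 are red in every CD62Lhi library and blue in every HET CD62Llo library, Gbp3 shows the opposite, and Ifi44 stands out in KO replicates 2 and 3 of CD62Lhi and replicate 2 of CD62Llo.

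The comparison of CD62Llo with CD62Lhi asks how the genes differ between the CD62Lhi and CD62Llo Tregs of one genotype. In HET, 17 of the 40 genes were lower in CD62Llo (42.5%, against 8.88% of all genes tested) and 2 were higher (5%, against 18.8%), by limma with Benjamini-Hochberg adjustment at 0.05. In KO, 16 were lower (40%, against 4.26%) and 1 was higher (2.5%, against 11.9%). As the 40 genes were chosen with earlier results known, these shares describe the list and are not a test of it. The median change of the 40 genes was -0.23 on the log2(FPKM + 1) scale in HET and -0.21 in KO, compared with 0.07 and 0.05 for all genes tested. Fold changes here are on that scale and understate the change of low genes. All 16 genes lower in KO were also lower in HET, which is 100% of the KO calls and 94.1% of the HET calls. How often all genes share such calls was not counted, so the overlap is not shown to be particular to these 40. Both comparisons share no library but share 1 estimate of the spread. Of these 16, the point estimate of the fall was larger in HET for 12. The 21 genes called in no comparison include Isg15, Stat2, both Mx genes, Rsad2 and Ifi44.

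**Figure D3:**
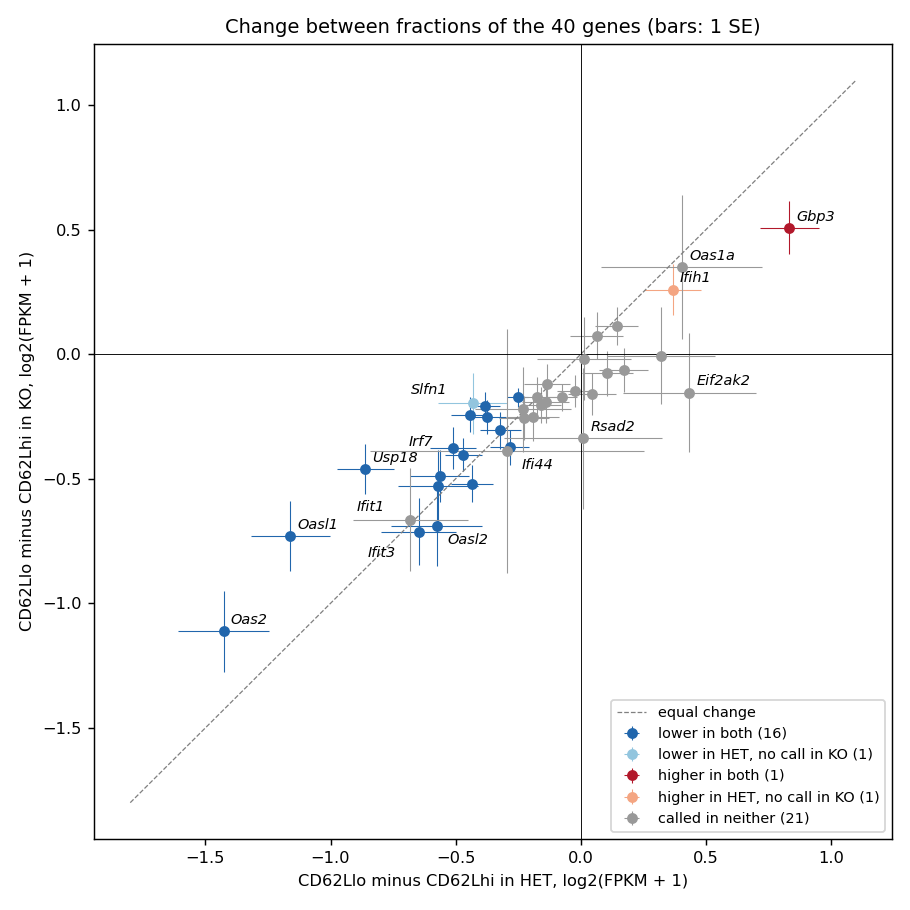
Change from CD62Lhi to CD62Llo of each of the 40 genes in HET (x axis) and KO (y axis), as log2(FPKM + 1), with bars of 1 SE, and the dashed line where both changes are equal. Oas2 is lowest in both, at -1.43 and -1.11, and Gbp3 is highest in both, at 0.83 and 0.51.

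These counts moved with single libraries. Lower calls in HET fell from 17 to 10 without HET CD62Lhi replicate 2 and to 11 when the 2 HET groups were fitted alone. Those in KO fell from 16 to 9 without KO CD62Lhi replicate 1 and to 8 without KO CD62Llo replicate 2, and stood at 13 without KO CD62Llo replicate 3. In bulk RNA, fewer cells of a type and less RNA per cell cannot be told apart. Markers of other cells moved with the fractions. Of 7 B cell markers, 5 were lower in CD62Llo in each genotype. The summed FPKM of 6 CD8 T and NK cell markers was 39.4 to 45.1 in HET CD62Lhi, 15.4 to 17.8 in HET CD62Llo, 30.3 to 37.5 in KO CD62Lhi and 13.4 to 19.9 in KO CD62Llo, where Cd8a and Cd8b1 were lower and Klrb1c was higher in CD62Llo of each genotype. That of 10 monocyte, macrophage and dendritic cell markers went the other way, at 14.8 to 29.7, 50.0 to 105, 15.4 to 21.6 and 33.2 to 263 in the same order, with Lyz2 the 1 called gene of 5 tested. Lyz2 was highest in KO CD62Llo replicate 2, at 219 FPKM, against 124 and 25.6 in the other KO CD62Llo libraries. Of 7 plasmacytoid dendritic cell markers 3 were tested. Ly6d fell in HET (log2 change -2.83, SE 0.33, adjusted p = 0.000267) and KO (log2 change -1.74, SE 0.29, adjusted p = 0.00391), as did Bst2, which is also one of the 40 genes, and Ccr9 rose in HET (log2 change 0.42, SE 0.12, adjusted p = 0.0293), a call kept in 13 of 19 alternatives. The summed FPKM of the 7 was 138 to 140.2 in HET CD62Lhi, 91.6 to 101 in HET CD62Llo, 117 to 142 in KO CD62Lhi and 104 to 107 in KO CD62Llo. Most of that sum was Bst2, at 113 and 117 FPKM in HET CD62Lhi and 81.3 to 90.04 in HET CD62Llo. In KO, Bst2 was at 98.9 to 117 in CD62Lhi and 91.7 to 94.7 in CD62Llo. The sum is thus not separate from the 40 genes. Siglech, Klk1 and Cox6a2 stayed at or under 1.24 FPKM. The part of these cells in the falls was not tested.

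The transcription factors of the pathway came first by role, and 2 of 3 fell in both genotypes. Irf7, which amplifies interferon production and is itself induced by it, lies at chr7:141263183-141266424 of mm10. Its level was 75.1 and 71.4 FPKM in HET CD62Lhi and 50.02, 55.8 and 52.04 in HET CD62Llo, against 79.8, 79.1 and 71.7 in KO CD62Lhi libraries and 59.1, 60.8 and 53.8 in KO CD62Llo. Every CD62Llo library was below every CD62Lhi library of its genotype, and Irf7 was 1.39-fold lower (log2 change -0.47, SE 0.074, adjusted p = 0.00138) in HET and 1.32-fold lower (log2 change -0.40, SE 0.066, adjusted p = 0.00340) in KO. Irf9, a DNA-binding part of the type I complex, measured 84.4 and 86.7 FPKM in HET CD62Lhi and 71.3, 71.9 and 71.6 in HET CD62Llo, against 87.4, 86.3 and 84.3 in KO CD62Lhi libraries and 77.6, 76.8 and 74.1 in KO CD62Llo. The libraries of each group lay close together, and its smaller drop passed in HET (log2 change -0.25, SE 0.043, adjusted p = 0.00200) and in KO (log2 change -0.17, SE 0.038, adjusted p = 0.0134). The KO call of Irf9 was lost without KO CD62Lhi replicate 1 or 2 (adjusted p up to 0.0587). Stat2, another part, ranged from 22.3 to 28.3 FPKM and was called in neither genotype, with changes of -0.14 (SE 0.091) in HET and -0.12 (SE 0.081) in KO.

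Of the 3 IFIT genes, which encode proteins that bind foreign RNA and block its translation, 2 fell in both genotypes. They sit together on chromosome 19, Ifit2 at chr19:34550694-34576534, Ifit3 at chr19:34583529-34588982 and Ifit1 at chr19:34640889-34650009. Ifit3 measured 20.6 and 24.8 FPKM in HET CD62Lhi and 11.5, 16.8 and 14.4 in HET CD62Llo, against 28.8, 26.6 and 32.7 in KO CD62Lhi libraries and 17.9, 18.9 and 15.8 in KO CD62Llo. It was 1.57-fold lower (log2 change -0.65, SE 0.15, adjusted p = 0.0107) in HET and 1.64-fold lower (log2 change -0.71, SE 0.13, adjusted p = 0.00665) in KO, and the fractions did not overlap in either genotype. Without HET CD62Lhi replicate 2 the HET call of Ifit3 was lost (adjusted p = 0.0963). Ifit2 measured 17.5 and 17.98 FPKM in HET CD62Lhi and 13.9, 14.6 and 11.9 in HET CD62Llo, against 18.3, 18.9 and 19.3 in KO CD62Lhi libraries and 15.6, 16.1 and 15.4 in KO CD62Llo. It fell in HET (log2 change -0.37, SE 0.075, adjusted p = 0.00507) and in KO (log2 change -0.25, SE 0.067, adjusted p = 0.0323). The HET call of Ifit2 was lost when the HET groups were fitted alone (adjusted p = 0.0503), and its KO call without any 1 of the HET CD62Lhi or KO libraries (adjusted p up to 0.0965). Ifit1 measured 20.5 and 27.8 FPKM in HET CD62Lhi and 9.55, 18.6 and 17.04 in HET CD62Llo, against 28.4, 26.1 and 30.4 in KO CD62Lhi libraries and 17.2, 17.6 and 17.5 in KO CD62Llo. Its libraries did not overlap between fractions and its estimates were as large as those of Ifit3, but the spread in HET was wide and neither passed, at adjusted p = 0.0541 in HET and 0.0574 in KO. With a replicate block both passed, at 0.0305 and 0.0381. Reads of near-identical Ifit copies could be shared between genes by the authors' counting, which makes single IFIT values uncertain, and the same holds for Oas1a and the Gbp and Schlafen genes.

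The largest falls were in the oligoadenylate synthetase family, where 4 of 5 members were lower in both genotypes. The synthetases of the family answer double-stranded RNA by making the signal that switches on RNase L, while its OAS-like genes are described below. Oas2, at chr5:120730333-120749848, measured 8.67 and 7.37 FPKM in HET CD62Lhi and 1.60, 3.05 and 2.56 in HET CD62Llo, against 9.50, 9.23 and 10.4 in KO CD62Lhi libraries and 3.82, 3.32 and 4.82 in KO CD62Llo. In both genotypes the lowest CD62Lhi library was well above the highest CD62Llo library, and Oas2 was 2.69-fold lower (log2 change -1.43, SE 0.18, adjusted p = 0.000415) in HET and 2.16-fold lower (log2 change -1.11, SE 0.16, adjusted p = 0.00179) in KO. Its neighbour Oas3, at chr5:120753098-120777659 and with the promoter match printed above, measured 10.6 and 11.4 FPKM in HET CD62Lhi and 8.04, 7.80 and 7.85 in HET CD62Llo, against 12.2, 10.2 and 10.7 in KO CD62Lhi libraries and 7.52, 6.69 and 7.91 in KO CD62Llo. Oas3 fell in HET (log2 change -0.43, SE 0.083, adjusted p = 0.00410) and in KO (log2 change -0.52, SE 0.075, adjusted p = 0.00165), and neither Oas2 nor Oas3 lost a call under any of 19 alternative settings. Oas1a, another synthetase, ranged from 8.51 to 22.1 FPKM with overlapping groups and went the other way without a call, at 0.40 (SE 0.32) in HET and 0.35 (SE 0.29) in KO.

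The OAS-like genes Oasl1 and Oasl2 lie next to each other at chr5:114923240-114937911 and chr5:114896934-114912245. Oasl1, whose protein is known to restrain translation of Irf7, measured 6.88 and 6.19 FPKM in HET CD62Lhi and 2.40, 2.80 and 1.96 in HET CD62Llo, against 9.19, 7.95 and 6.23 in KO CD62Lhi libraries and 4.81, 4.37 and 3.63 in KO CD62Llo. The fractions were apart in both genotypes, and Oasl1 was 2.23-fold lower (log2 change -1.16, SE 0.16, adjusted p = 0.000624) in HET and 1.66-fold lower (log2 change -0.73, SE 0.14, adjusted p = 0.00728) in KO, with both calls kept under all 19 alternatives. Oasl2 measured 7.10 and 8.33 FPKM in HET CD62Lhi and 4.26, 6.47 and 4.04 in HET CD62Llo, against 9.34, 8.42 and 12.2 in KO CD62Lhi libraries and 5.87, 5.32 and 6.05 in KO CD62Llo. The fractions did not overlap, and its fall passed in HET (log2 change -0.58, SE 0.18, adjusted p = 0.0414) and in KO (log2 change -0.69, SE 0.16, adjusted p = 0.0188). The HET call of Oasl2 was lost in 11 of 19 alternatives, 8 of them left-out libraries (adjusted p up to 0.214, without HET CD62Lhi replicate 2) and 1 of them the replicate block (adjusted p = 0.0574). Its KO call was lost without KO CD62Lhi replicate 3 or KO CD62Llo replicate 2 (adjusted p up to 0.0708).

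Isg15 and Usp18 work as a pair, with Isg15 a ubiquitin-like tag and Usp18 the protease that removes it and also damps the type I receptor. Usp18 fell in both genotypes, and Isg15 was called in neither. Usp18, at chr6:121245906-121270917, measured 38.2 and 39.2 FPKM in HET CD62Lhi and 19.9, 23.4 and 19.4 in HET CD62Llo, against 48.4, 41.1 and 45.3 in KO CD62Lhi libraries and 37.3, 30.6 and 29.5 in KO CD62Llo. HET CD62Llo was the lowest group by a wide margin, and Usp18 was 1.82-fold lower (log2 change -0.86, SE 0.11, adjusted p = 0.000519) in HET and 1.38-fold lower (log2 change -0.46, SE 0.10, adjusted p = 0.0138) in KO. The KO call of Usp18 was lost without KO CD62Lhi replicate 1 or KO CD62Llo replicate 2 (adjusted p up to 0.0575). Isg15 ranged from 50.8 to 77.1 FPKM, all groups overlapped, and its changes were 0.013 (SE 0.19) in HET and -0.018 (SE 0.17) in KO with no call.

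**Figure D4:**
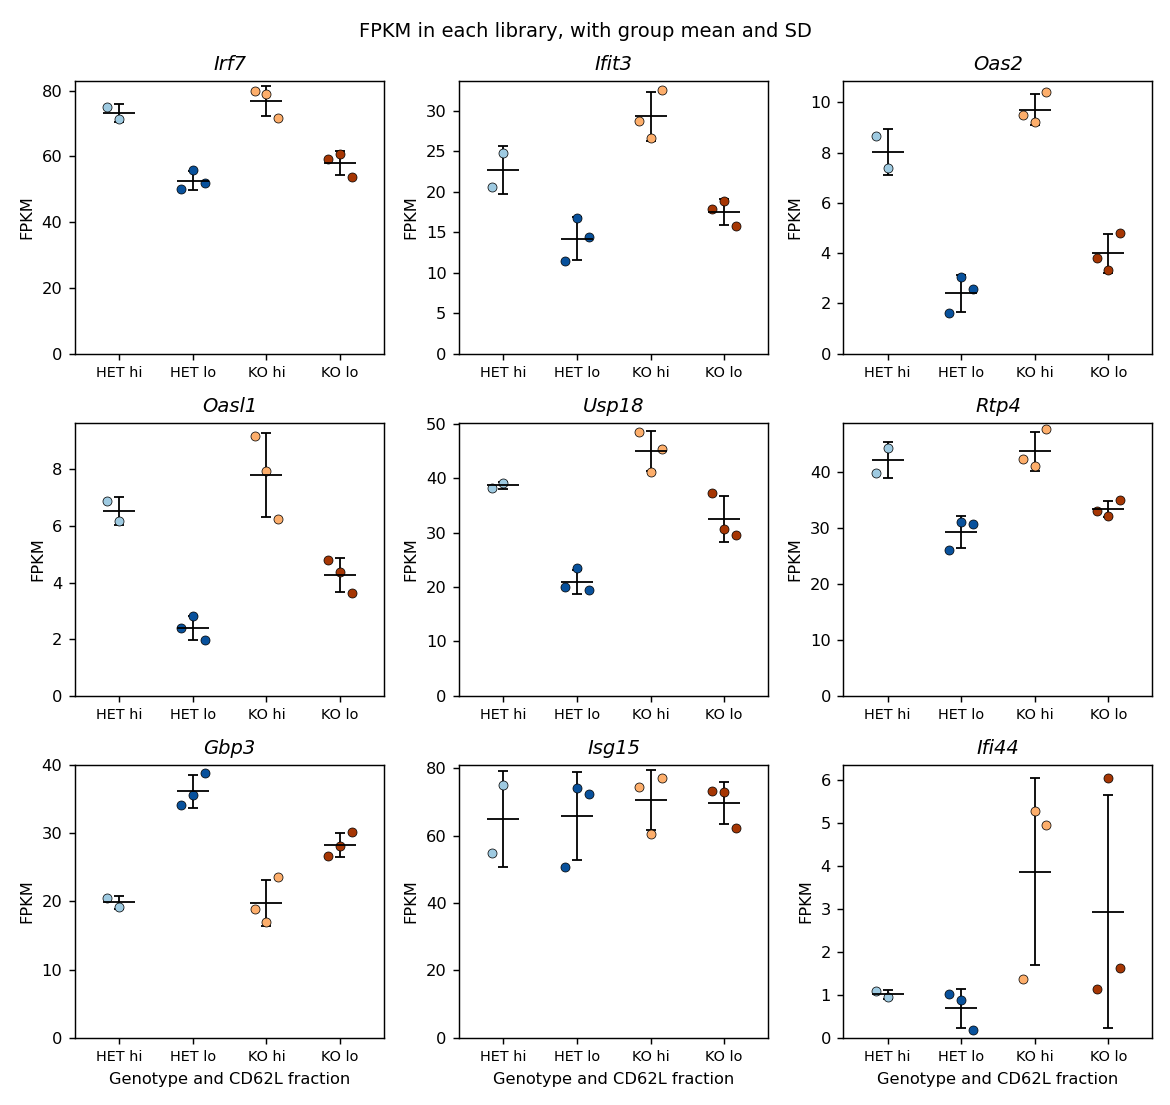
FPKM (y axis, from 0) of 9 genes in each library (points, replicates 1 to 3 from left to right) by genotype and CD62L fraction (x axis), with the group mean and SD in black. Irf7, Ifit3, Oas2, Oasl1, Usp18 and Rtp4 are lower in both CD62Llo groups, Gbp3 is higher, Isg15 overlaps throughout, and Ifi44 differs most between replicates.

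The cytosolic RNA helicases, which recognise viral RNA, split in direction in HET. Ddx58 encodes RIG-I and measured 25.9 and 27.3 FPKM in HET CD62Lhi and 19.4, 23.2 and 22.6 in HET CD62Llo, against 29.3, 29.9 and 28.3 in KO CD62Lhi libraries and 22.1, 21.2 and 23.6 in KO CD62Llo. It fell in HET (log2 change -0.28, SE 0.078, adjusted p = 0.0228) and in KO (log2 change -0.37, SE 0.070, adjusted p = 0.00614) with no overlap between fractions. The HET call of Ddx58 was lost without HET CD62Lhi replicate 1 or 2 (adjusted p up to 0.144). Ifih1 encodes MDA5, the sensor of long double-stranded RNA, and measured 7.12 and 8.60 FPKM in HET CD62Lhi and 8.97, 11.5 and 10.8 in HET CD62Llo, against 7.60, 7.51 and 9.004 in KO CD62Lhi libraries and 9.47, 10.4 and 9.54 in KO CD62Llo. Its CD62Llo libraries were the higher ones in both genotypes, which passed in HET (log2 change 0.37, SE 0.12, adjusted p = 0.0409) and not in KO (log2 change 0.26, SE 0.10, adjusted p = 0.127). The difference between those changes was not called (log2 change -0.11, SE 0.15, adjusted p = 0.901 for the interaction), and the HET call of Ifih1 was lost in 11 of 19 alternatives, among them both that rescale the libraries and 7 left-out libraries (adjusted p up to 0.281, without HET CD62Lhi replicate 1). Dhx58, which encodes the regulator LGP2, and Ddx60 ranged from 14.2 to 19.2 and 6.74 to 10.5 FPKM, and their changes of -0.16 and -0.18 in HET and -0.20 and -0.17 in KO did not pass.

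Among the other sensors and nucleases, Zbp1 changed. Zbp1, a sensor of Z-form nucleic acid that can start necroptosis, measured 106 and 122 FPKM in HET CD62Lhi and 85.2, 98.4 and 89.4 in HET CD62Llo, against 125, 123 and 112 in KO CD62Lhi libraries and 97.7, 99.3 and 93.5 in KO CD62Llo. Its fractions did not overlap and it fell in HET (log2 change -0.32, SE 0.082, adjusted p = 0.0163) and KO (log2 change -0.31, SE 0.073, adjusted p = 0.0197). The HET call of Zbp1 was lost without HET CD62Lhi replicate 2 (adjusted p = 0.152), and the KO call without KO CD62Llo replicate 3 or KO CD62Lhi replicate 1 or 2 (adjusted p up to 0.0755). Eif2ak2, the kinase PKR that stops translation, measured 7.99 and 9.32 FPKM in HET CD62Lhi and 8.79, 12.9 and 15.2 in HET CD62Llo, against 12.3, 8.62 and 15.3 in KO CD62Lhi libraries and 10.5, 8.30 and 13.2 in KO CD62Llo. Its fractions overlapped in both genotypes, and neither 0.43 (SE 0.27) in HET nor -0.15 (SE 0.24) in KO was called. Isg20, an exonuclease, ranged from 34.7 to 47.1 FPKM and was called in neither.

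The Mx genes encode dynamin-like GTPases that block viruses, and the C57BL/6 strain is known to carry a Mx1 allele that makes no working protein. Mx1 measured 4.09 and 5.50 FPKM in HET CD62Lhi and 5.004, 7.43 and 6.31 in HET CD62Llo, against 7.30, 5.46 and 9.20 in KO CD62Lhi libraries and 7.64, 8.18 and 5.82 in KO CD62Llo. Mx2 ranged from 2.69 to 5.42 FPKM. The groups of both genes overlapped between fractions, and no change of either was called.

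The GTPases known as targets of interferon gamma held the one gene that rose in both genotypes. Gbp3, a guanylate-binding protein gene at chr3:142560052-142573212, measured 20.5 and 19.2 FPKM in HET CD62Lhi and 34.1, 35.6 and 38.9 in HET CD62Llo, against 18.8, 16.99 and 23.6 in KO CD62Lhi libraries and 26.7, 28.2 and 30.2 in KO CD62Llo. Every CD62Llo library exceeded every CD62Lhi library of its genotype, Gbp3 was 1.78-fold higher (log2 change 0.83, SE 0.12, adjusted p = 0.000786) in HET and 1.42-fold higher (log2 change 0.51, SE 0.11, adjusted p = 0.0106) in KO, and both calls were kept under all 19 alternatives. Its neighbour Gbp2, at chr3:142620663-142638008, also holds a promoter match and ranged from 40.9 to 51.8 FPKM with changes of 0.063 (SE 0.10) and 0.075 (SE 0.094), neither called. The immunity-related GTPases Ifi47, Igtp and Irgm1, which act on membranes around intracellular parasites, ranged from 117 to 172, 129 to 181 and 55.2 to 74.6 FPKM. Their 6 changes lay between -0.26 and -0.14 and none was called. Ifi47 passed as lower in both genotypes with a replicate block (adjusted p = 0.0208 in HET and 0.0161 in KO) and after centring each library on its median.

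Cmpk2, Rsad2 and Bst2 act at membranes or on nucleotides. Cmpk2, a nucleotide kinase gene at chr12:26469215-26479837, measured 6.35 and 6.96 FPKM in HET CD62Lhi and 3.57, 5.06 and 3.93 in HET CD62Llo, against 7.66, 5.75 and 8.72 in KO CD62Lhi libraries and 4.35, 4.60 and 5.31 in KO CD62Llo. It fell in HET (log2 change -0.57, SE 0.16, adjusted p = 0.0261) and KO (log2 change -0.53, SE 0.14, adjusted p = 0.0352), but the HET call was lost without HET CD62Lhi replicate 1 or 2 or HET CD62Llo replicate 1 or 3 (adjusted p up to 0.143). The KO call of Cmpk2 was lost without HET CD62Lhi replicate 1 or 2, KO CD62Llo replicate 1 or 2 or KO CD62Lhi replicate 1 or 3 (adjusted p up to 0.114). Its neighbour Rsad2, at chr12:26442743-26456452, makes an antiviral nucleotide and measured 1.51 and 3.25 FPKM in HET CD62Lhi and 1.45, 3.09 and 2.55 in HET CD62Llo, against 3.43, 1.88 and 4.51 in KO CD62Lhi libraries and 2.21, 1.99 and 2.62 in KO CD62Llo. Rsad2 overlapped between fractions in both genotypes and was not called (0.0091, SE 0.31 in HET and -0.34, SE 0.28 in KO). Bst2, which encodes tetherin, a protein that holds budding virus at the membrane, measured 113 and 117 FPKM in HET CD62Lhi and 90.04, 81.3 and 81.7 in HET CD62Llo, against 117, 98.9 and 115 in KO CD62Lhi libraries and 92.2, 94.7 and 91.7 in KO CD62Llo. Bst2 was 1.36-fold lower (log2 change -0.44, SE 0.077, adjusted p = 0.00246) in HET, a call kept under all alternatives, and 1.18-fold lower (log2 change -0.24, SE 0.069, adjusted p = 0.0417) in KO. The KO call of Bst2 was lost in 11 of 19 alternatives (adjusted p up to 0.145, without KO CD62Lhi replicate 1), including 9 that left out a library, namely every one but HET CD62Llo replicate 1 and KO CD62Lhi replicate 2.

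Of 6 genes with other or unclear roles, Rtp4 and Ifi35 fell in both genotypes. Rtp4, a chaperone of receptors, measured 39.8 and 44.3 FPKM in HET CD62Lhi and 26.04, 30.98 and 30.7 in HET CD62Llo, against 42.3, 41.03 and 47.7 in KO CD62Lhi libraries and 32.97, 32.2 and 34.9 in KO CD62Llo. It fell in HET (log2 change -0.51, SE 0.093, adjusted p = 0.00299) and KO (log2 change -0.38, SE 0.083, adjusted p = 0.0137), and the KO call of Rtp4 was lost without KO CD62Llo replicate 2 (adjusted p = 0.0534). Ifi35 measured 63.6 and 67.8 FPKM in HET CD62Lhi and 48.3, 49.2 and 52.9 in HET CD62Llo, against 64.96, 60.3 and 63.2 in KO CD62Lhi libraries and 54.1, 52.01 and 56.8 in KO CD62Llo. The fractions did not overlap, and Ifi35 fell in HET (log2 change -0.38, SE 0.062, adjusted p = 0.00156) and KO (log2 change -0.21, SE 0.055, adjusted p = 0.0319). The KO call of Ifi35 was lost without KO CD62Llo replicate 1 or 2 or KO CD62Lhi replicate 1 or 3 (adjusted p up to 0.114). Xaf1, which opposes inhibitors of apoptosis, Parp14, an ADP-ribosyltransferase, and Ifi27l2a ranged from 14.3 to 18.6, 35.3 to 44.9 and 761 to 1006 FPKM and were called in neither.

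Ifi44 stood out for its differences between replicates. It measured 1.09 and 0.939 FPKM in HET CD62Lhi and 1.01, 0.886 and 0.168 in HET CD62Llo, against 1.36, 5.29 and 4.96 in KO CD62Lhi libraries and 1.14, 6.05 and 1.62 in KO CD62Llo. The 5 HET libraries and KO replicate 1 of both fractions lay at or under 1.36 FPKM, while KO replicate 2 of both fractions and KO CD62Lhi replicate 3 lay near 5 or above and KO CD62Llo replicate 3 at 1.62. Its neighbour Ifi44l, which is not among the 40 genes, measured 0.0377 and 0.0469 FPKM in HET CD62Lhi and 0, 0.0323 and 0.0289 in HET CD62Llo, against 0, 5.17 and 3.001 in KO CD62Lhi libraries and 0, 4.86 and 0.841 in KO CD62Llo. Ifi44l was thus listed at 0 in KO replicate 1 of both fractions and above 2 in the same 3 libraries. No change of Ifi44 was called, and its spread within groups was the widest of the 40 genes, with an SD of 0.69 on the log2(FPKM + 1) scale.

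The Schlafen genes, a family linked to T cell quiescence and growth control, gave 2 lower calls in HET and 1 in KO. Slfn5, at chr11:82952102-82964850, measured 38.8 and 48.4 FPKM in HET CD62Lhi and 25.3, 32.3 and 29.9 in HET CD62Llo, against 46.2, 46.4 and 49.5 in KO CD62Lhi libraries and 33.2, 30.9 and 36.3 in KO CD62Llo. It fell in HET (log2 change -0.56, SE 0.12, adjusted p = 0.00614) and KO (log2 change -0.49, SE 0.11, adjusted p = 0.0120). The HET call of Slfn5 was lost without HET CD62Lhi replicate 2 (adjusted p = 0.0669) and the KO call without KO CD62Llo replicate 2 (adjusted p = 0.0510). Slfn1 measured 150.4 and 195 FPKM in HET CD62Lhi and 107, 133 and 143 in HET CD62Llo, against 172, 167 and 192 in KO CD62Lhi libraries and 152, 147 and 163 in KO CD62Llo. Its fall passed in HET (log2 change -0.43, SE 0.14, adjusted p = 0.0418) and not in KO (log2 change -0.20, SE 0.12, adjusted p = 0.326), and the difference was not called (adjusted p = 0.803 for the interaction). The HET call of Slfn1 was lost in 11 of 19 alternatives, 8 of them left-out libraries (adjusted p up to 0.310, without HET CD62Lhi replicate 2). Slfn2, whose loss is known to disturb T cell quiescence, ranged from 265 to 332 FPKM with changes of 0.14 (SE 0.085) and 0.11 (SE 0.076), and Slfn8 from 38.5 to 47.01, and neither was called.

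The comparison of KO with HET asks how the genes differed between genotypes within a fraction. The share of the sequenced cells that lost Ezh2 is unknown, so a difference, or its absence, is that of the genotypes. In CD62Lhi, none of the 40 genes was called by limma with Benjamini-Hochberg adjustment, higher (0.0% of all genes tested) or lower (0.0%). At an unadjusted p under 0.05 there were 3 of the 40 genes and 328 of all genes, and the count of 0 stood under all 19 alternatives. The median difference was 0.10, against -0.02 for all genes, and 34 of the 40 genes were above 0, compared with 41.7% of all genes. Without HET CD62Lhi replicate 1 the median fell to 0.03 with 21 of the 40 above 0, and without KO CD62Lhi replicate 3 to 0.06 with 29. The largest were Ifi44 at 1.15 (SE 0.55), Mx1 at 0.51 (SE 0.22), Eif2ak2 at 0.41 (SE 0.27), Ifit3 at 0.36 (SE 0.15) and Rsad2 at 0.34 (SE 0.31). The estimate of Ifi44 rests on KO replicates 2 and 3. Ifit3 and Ifi44 did not overlap between genotypes in this fraction, while Mx1, Eif2ak2 and Rsad2 did.

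In CD62Llo, Oasl1 and Usp18 were higher in KO (5% of the 40 genes, against 1.36% of all genes tested) and none was lower (against 3.25%). At an unadjusted p under 0.05 there were 9 of the 40 genes and 2160 of all 11431. Usp18 was 1.52-fold higher (log2 change 0.61, SE 0.10, adjusted p = 0.0124), with 19.9, 23.4 and 19.4 FPKM in HET and 37.3, 30.6 and 29.5 in KO. Oasl1 was 1.56-fold higher (log2 change 0.64, SE 0.14, adjusted p = 0.0355), with 2.40, 2.80 and 1.96 FPKM in HET and 4.81, 4.37 and 3.63 in KO. Neither gene overlapped between genotypes. When the 2 CD62Llo groups were fitted alone neither was called, with an adjusted p of 0.0754 for Usp18. The call of Oasl1 was also lost without either HET CD62Lhi library, any HET CD62Llo library, KO CD62Lhi replicate 2, or KO CD62Llo replicate 1 or 2 (adjusted p up to 0.134). Oas2 had a similar estimate and no overlap, but did not pass (log2 change 0.56, SE 0.16, adjusted p = 0.0898), nor did Ifi44 (log2 change 1.05, SE 0.49, adjusted p = 0.285). Gbp3 had the lowest estimate (log2 change -0.34, SE 0.11, adjusted p = 0.113), and was called lower with a replicate block (adjusted p = 0.0319) and without KO CD62Lhi replicate 3. The median difference was 0.09, against -0.03 for all genes, and 29 of the 40 genes were above 0, compared with 41.6% of all genes. Without HET CD62Llo replicate 1 it was 0.04, with 21 of the 40 above 0.

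**Figure D5:**
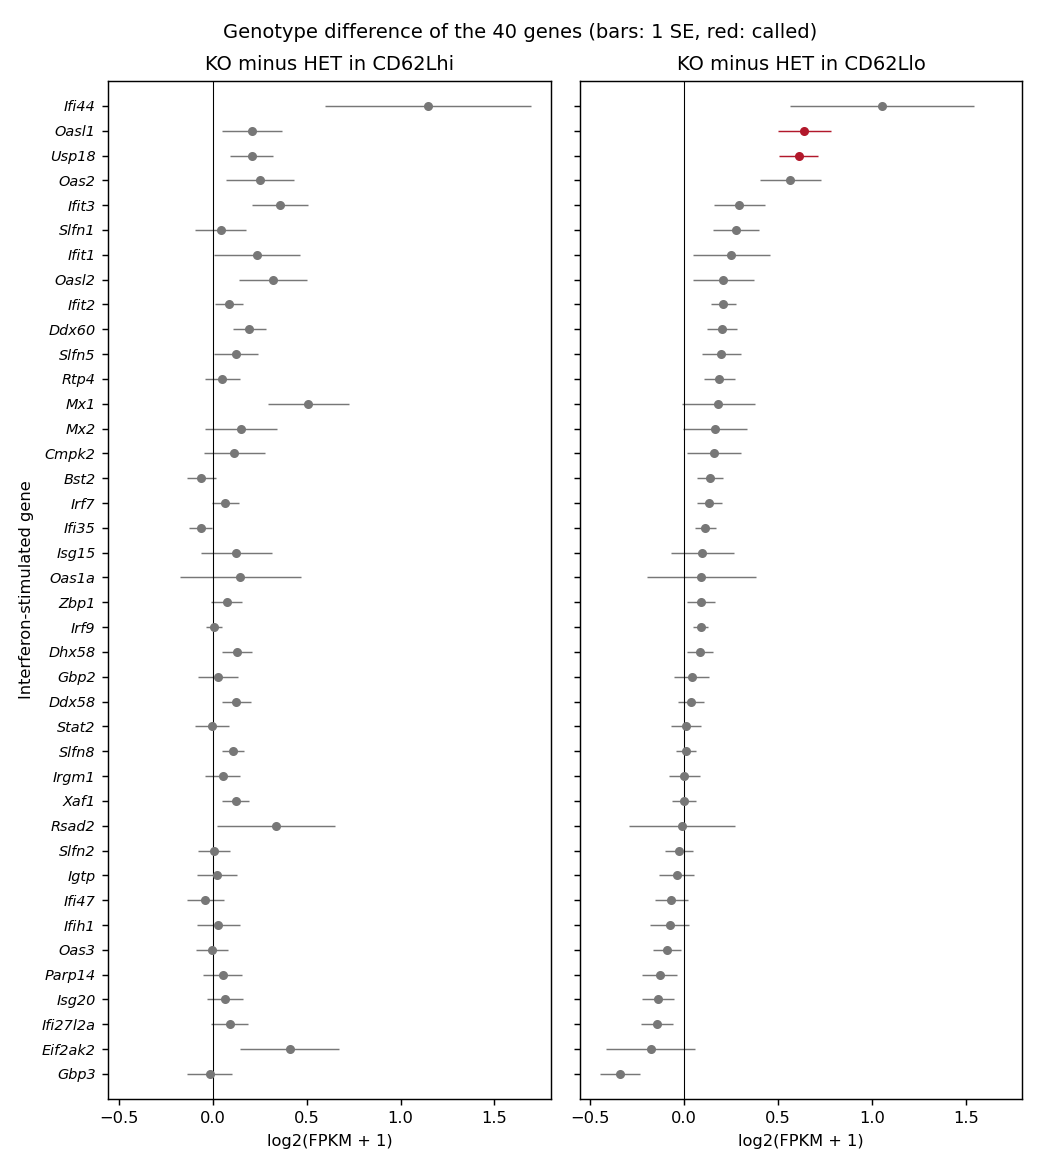
Difference between KO and HET of the 40 genes (y axis, ordered by the CD62Llo value) in CD62Lhi (left) and CD62Llo (right), as log2(FPKM + 1) on the x axis with bars of 1 SE, and red for called genes. Oasl1 and Usp18 are the called genes, both in CD62Llo, and Ifi44 has the highest estimate and the widest bars in both fractions.

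Whether the fraction change differed between genotypes was tested by the interaction, and none of the 40 genes was called higher (0.00875% of all genes tested) or lower (0.0%). At an unadjusted p under 0.05 there was 1 of the 40 genes and 868 of all genes. That gene was Usp18, whose fall was smaller in KO by 0.40 (SE 0.15), with an adjusted p of 0.564. The next were Oasl1 at 0.43 (SE 0.21), and in the other direction Eif2ak2 at -0.59 (SE 0.36), Rsad2 at -0.35 (SE 0.42) and Gbp3 at -0.33 (SE 0.16). The smaller falls of Usp18 and Oasl1 in KO are therefore not shown to differ from those in HET.

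The genes of the interferon pathway itself were mixed, and the counts of each list are to be read against the 18.8% higher and 8.88% lower of all genes in HET, and 11.9% and 4.26% in KO. Of 5 receptor genes tested, Ifnar1 and Ifngr2 fell in CD62Llo of both genotypes. Ifnar1, a chain of the type I receptor, changed by -0.34 (SE 0.056) in HET and -0.31 (SE 0.050) in KO, and Ifngr2, the signalling chain of the gamma receptor, by -0.92 (SE 0.080) and -0.38 (SE 0.072). Ifngr2 was also higher in KO than in HET CD62Llo (log2 change 0.38, SE 0.072, adjusted p = 0.0201), a call lost without HET CD62Llo replicate 2 or 3 or KO CD62Llo replicate 1 or 3 and with those groups alone (adjusted p up to 0.0812). Of 10 transducers, 4 rose and 1 fell in HET, and 2 rose and 1 fell in KO. The gamma pathway kinase Jak2 rose (0.63, SE 0.078 in HET and 0.46, SE 0.070 in KO), as did Irf8 (0.57, SE 0.17 and 0.61, SE 0.15), while Jak1 fell (-0.24, SE 0.052 and -0.17, SE 0.046). Tyk2 and Irf5 rose in HET, and Irf5 was lower in KO CD62Llo than in HET CD62Llo (log2 change -0.68, SE 0.12, adjusted p = 0.0172), which was lost without HET CD62Llo replicate 2 or 3 or KO CD62Llo replicate 1 (adjusted p up to 0.0745). The calls of Ifnar1, Ifngr2 and Jak2 between fractions stood under all 19 alternatives, as did that of Irf5 in HET. In HET the call of Irf8 stood in 12 of 19 and was lost with the replicate block (adjusted p = 0.0512), without either HET CD62Lhi library and without HET CD62Llo replicate 1 or 3 (adjusted p up to 0.164). Its KO call was lost without KO CD62Lhi replicate 1 or 2 (adjusted p up to 0.0841). Jak1 was called in 10 of 19 in KO, where most single libraries left out ended the call (adjusted p up to 0.124), and in HET the call was lost without HET CD62Lhi replicate 1 (adjusted p = 0.0777). Tyk2 was lost without HET CD62Lhi replicate 2 (adjusted p = 0.0678).

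Of 9 inhibitors of the signal, the phosphatase gene Ptpn11 rose in both genotypes (0.78, SE 0.11 in HET and 0.61, SE 0.099 in KO). Socs1, which blocks Jak kinases, fell in HET (-0.58, SE 0.14), and Adar, an RNA editor, in KO (-0.16, SE 0.043). Socs1 was lost without HET CD62Lhi replicate 1 (adjusted p = 0.117), and Adar was called in 13 of 19 alternatives, being lost without any KO CD62Lhi library or KO CD62Llo replicate 1 or 2 (adjusted p up to 0.116). Of 10 interferon genes, Ifng alone passed the filter, at 0.488 and 0.304 FPKM in HET CD62Lhi and 4.13, 3.59 and 3.65 in HET CD62Llo, against 0.260, 0.502 and 0.213 in KO CD62Lhi libraries and 1.69, 3.11 and 2.03 in KO CD62Llo. Ifng rose in HET (log2 change 1.78, SE 0.17, adjusted p = 9.75e-05) and KO (log2 change 1.29, SE 0.16, adjusted p = 0.000640), and Ifnb1 and the alpha interferon genes of the list were listed at 0 in every library. Of 8 sensors and adaptors tested, Tlr7, the endosomal receptor of single-stranded RNA, fell in both genotypes (-0.70, SE 0.12 and -0.40, SE 0.10). The KO call of Tlr7 was lost without any KO CD62Lhi library or KO CD62Llo replicate 2 (adjusted p up to 0.0892). Between genotypes in CD62Llo, Tlr7 was at the threshold (log2 change 0.43, SE 0.10, adjusted p = 0.0481), was not called with the replicate block (adjusted p = 0.0625) and was called in 3 of 19 alternatives (adjusted p up to 0.189). Ticam1 rose in HET, in 13 of 19 alternatives, and was lost without HET CD62Lhi replicate 2 or HET CD62Llo replicate 1 or 3 (adjusted p up to 0.192).

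Of 27 other members of the same gene families, 4 rose and 2 fell in HET, and 1 rose and 1 fell in KO, which is near or under the background of all genes in each direction. Gbp5 rose in both (0.55, SE 0.069 and 0.50, SE 0.061), as its relative Gbp3 did. Gbp8, Iigp1 and Slfn9 rose in HET, with log2 changes of 0.47, 0.56 and 0.44. Trim25, the ubiquitin ligase that activates RIG-I, fell in both (-0.40, SE 0.090 and -0.31, SE 0.081), and Parp11 in HET (-0.64, SE 0.12). Iigp1 was lost without either HET CD62Lhi library or HET CD62Llo replicate 2 (adjusted p up to 0.0872), and Trim25 in HET without HET CD62Lhi replicate 2 (adjusted p = 0.0947). In KO Trim25 was called in 13 of 19 alternatives and lost without any KO CD62Lhi library or KO CD62Llo replicate 1 or 2 (adjusted p up to 0.107). Of 12 genes of class I antigen presentation, which interferons also induce, Psmb8 and Psmb10 fell in HET, against 8.88% of all genes, and none was called in KO. Psmb8 was called in 5 of 19 alternatives and Psmb10 in 13, and neither with the replicate block (adjusted p = 0.0784 and 0.0510). Of 4 Ly6 antigen genes, Ly6c1 and Ly6c2 fell in both genotypes, with Ly6c2 at -2.35 in HET. Ly6a rose in HET (0.72, SE 0.14) and fell in KO (-0.47, SE 0.13), and the interaction was -1.19 (SE 0.19) with an adjusted p of 0.151. For Ly6a the HET call was lost without HET CD62Lhi replicate 2 (adjusted p = 0.0568), and the KO call stood in 12 of 19 alternatives, lost without any KO CD62Lhi library or KO CD62Llo replicate 1 or 2 (adjusted p up to 0.125). Fitting only the groups compared also ended the calls of Socs1, Ticam1, Psmb8 and Psmb10 in HET, and of Irf8, Jak1, Adar and Trim25 in KO. Quantile normalization ended those of Irf8 and Ticam1 in HET and Ly6a in KO, median centring that of Ticam1, and no filter those of Irf8 and Psmb8 in HET and Tlr7 and Ly6a in KO.

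Many of the 40 genes also shared an order of the libraries within a group. In HET CD62Llo, 22 of the 40 genes were highest in replicate 2 and lowest in replicate 1, an order held by 13.8% of all genes tested. In KO CD62Lhi, 19 were highest in replicate 3 and lowest in replicate 2, against 12.75% of all genes, and in HET CD62Lhi 30 were higher in replicate 2, against 44.7%. These orders were chosen after the values were seen, which favours an excess over all genes, so the shares are no test. No order was counted for KO CD62Llo. Ifit1, Ifit3, Isg15, Ifih1, Mx1, Mx2, Gbp2, Irgm1, Rsad2, Cmpk2, Rtp4 and Parp14 held all 3 orders. They are 12 of the 40 genes, against 2.33% of all genes tested. The mean log2(FPKM + 1) of the 40 genes was 4.81 and 4.92 in the HET CD62Lhi libraries, 4.51, 4.76 and 4.64 in HET CD62Llo, against 4.998, 4.94 and 5.10 in KO CD62Lhi libraries and 4.74, 4.79 and 4.75 in KO CD62Llo. The lowest CD62Lhi library of each genotype was thus above its highest CD62Llo library.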

How the data were processed

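RNA was sequenced from Tregs sorted as CD62Lhi and CD62Llo from HET and KO mice. The authors deposited an FPKM value for each gene entry of each library. Per the submitters' processing notes the build was mm10 and the tools were Cufflinks 2.1.1, TopHat, CASAVA 1.8.2 and FastQC. The notes give neither settings nor a version for TopHat. A deposited table of group values was not used here.

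From these FPKM values, entries sharing a symbol were summed, and genes reaching 1 FPKM in 2 or more of 11 libraries were fitted in R 4.3.3 with limma 3.58.1. The fit used log2(FPKM + 1), a pseudocount of 1, 4 group means and empirical Bayes with a trend, with Benjamini-Hochberg adjustment over 11431 genes at 0.05, two-sided, and was tested on simulated data. No count model was used, because FPKM values are not counts. The deposited upper limits of FPKM were compared with the values and used for nothing else. All 40 genes had 1 entry each, on the mm10 locus of that symbol. The alternatives were quantile normalization, median centring of libraries, a pseudocount of 0.1, no filter, a mean FPKM of at least 3, only the groups compared, a replicate block, each library left out, and the highest of duplicate entries.

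The members, the other gene lists and the tests were chosen with earlier results of these data known. Every one of the 40 genes is described, with values for each library where it was called or was among the 5 largest changes of a comparison. From each other list up to 4 called genes per comparison were named, and some genes that this rule picks are not reported here. Replicate numbers were checked for pairing by correlating deviations from group means. For KO and HET CD62Llo the same-number correlations were 0.165, 0.153 and 0.148. Those numbers may therefore pair the libraries, which the labels do not say. The main fit used no such pairing, and the replicate block among the alternatives did. The different-number values of KO and HET CD62Llo ran from -0.24 to 0.084. Between fractions in KO the same-number values were 0.13, 0.068 and 0.18, against different-number values from -0.18 to 0.086. Between fractions in HET they were 0.13 and 0.073, against -0.13 to 0.060. The numbers may thus pair libraries across fractions too, and the main fit ignored this. Between genotypes in CD62Lhi the same-number values were 0.075 and -0.032, against -0.087 to 0.087.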

Additional observations from a re-analysis of the deposited data

Results flagged for a closer look

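In HET CD62Lhi replicate 3, the library left out for low read counts, 589 of 23846 entries had an FPKM above 0, and 2 of the 40 genes were detected. Ifi47 was listed there at 489.2 FPKM and Slfn5 at 128.8 FPKM, each above its value in all of the 11 libraries used. The FPKM of that library summed to 331591 over 589 entries, against 569609 to 648694 over at least 15338 in each library used. The 2 values therefore cannot be compared with those of the other libraries, and no comparison here used them.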

How the results depend on the processing

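None of the 40 genes reversed direction among called values under the 19 alternatives. Lower calls in HET went from 17 to 11 with only the groups compared, and ranged from 10 to 18 when each library was left out. Higher calls in HET went from 2 to 1 with quantile normalization, median centring, no filter or only the groups compared, and ranged from 1 to 2 with libraries left out. Lower calls in KO ranged from 8 to 17 with libraries left out. For KO minus HET in CD62Llo, lower calls went from 0 to 1 with the replicate block and ranged from 0 to 1 with libraries left out. Higher calls there went from 2 to 1 with no filter and to 0 with only the groups compared, and ranged from 1 to 2 with libraries left out. The cause of these moves was not tested. Fewer libraries entered the fits with a library left out or with only the groups compared. The other settings used all libraries of the main fit. Where a HET CD62Lhi library was left out, the lone other one was assumed to vary like the other groups. Beside Ifit1, Ifi47, Oasl2 and Gbp3, as given above, the replicate block changed no call of the 40 genes. Calls kept under every alternative were 10 of 19 in HET, 7 of 17 in KO, and 0 of 2 for KO minus HET in CD62Llo.

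Quantile normalization and median centring shifted all genes in HET by -0.101 and -0.102 (log2). All calls in HET were 2148 higher and 1015 lower in the main setting, 1431 and 1638 after quantile normalization, and 1522 and 1862 after median centring. In KO they were 1365 and 487, then 954 and 797, then 1007 and 987. Lower calls among the 40 genes were 18 in HET and 18 in KO after quantile normalization, and 21 and 22 after median centring. The depth is unknown, so its limit on low genes such as Rsad2 and Ifi44 cannot be given.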

Other observations

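Nlrc5 and Herc6, which are outside the 40 genes, were singled out after their values were seen. How many of all genes also had every KO library above every HET library was not counted. Several other genes of the lists, such as Ifnar1 and Ly6c2, did not overlap between genotypes within each fraction, but did across fractions. Nlrc5, the activator of class I genes, measured 59.6 and 59.4 FPKM in HET CD62Lhi and 63.7, 63.1 and 63.98 in HET CD62Llo, against 74.7, 72.2 and 70.3 in KO CD62Lhi libraries and 74.1, 71.4 and 67.9 in KO CD62Llo. Every KO library was above every HET library, with differences of 0.28 (SE 0.050) in CD62Lhi and 0.16 (SE 0.044) in CD62Llo, neither called (adjusted p = 0.981 and 0.0848, against 0.0% and 1.36% of all genes called higher). In CD62Llo it was called in 2 of 19 alternatives (adjusted p from 0.0379 to 0.265). Herc6, the ligase that attaches Isg15, measured 9.92 and 9.47 FPKM in HET CD62Lhi and 9.53, 10.03 and 10.9 in HET CD62Llo, against 11.9, 12.9 and 12.9 in KO CD62Lhi libraries and 12.4, 11.5 and 11.5 in KO CD62Llo. All KO libraries exceeded all HET libraries here too, with differences of 0.34 (SE 0.067) and 0.20 (SE 0.060), neither called (adjusted p = 1 and 0.110).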
